A study of Mus musculus with 18 samples.

Results

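The loci described here are the entries of the liver count files whose gene identifier is 0, which is to say transcribed or predicted loci that carry a name and coordinates but no link to a numbered gene record. They were found by that field alone, without any measured value, and numbered 21364 of 52463 loci in the files. The other 31099 loci carried an identifier and are called identified loci. All were counted in the same 18 libraries of polyadenylated liver RNA.

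Livers came from mice of a mixed C57BL/6 and SV129 background at 8 weeks of age, either wild type (WT, Ppara+/+) or lacking the gene for the nuclear receptor PPARA (KO, Ppara-/-). For 48 h each genotype ate normal chow (control) or chow with 1 of the PPARA agonists Wy14,643 (Wy, 0.1%) and fenofibrate (0.5%). RNA of 3 to 5 livers was pooled per library, with 3 libraries in each of the 6 groups, so animals within a pool cannot be told apart and all errors are the spread between pools. Both genotypes carry the same mixed background, and the labels give no littermate pairing, so differences between the genotypes at other loci of that background cannot be told apart from the loss of Ppara.

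PPARA is a receptor for fatty acids and for fibrate drugs that binds DNA together with RXR and, in mouse liver, drives genes of peroxisomal and mitochondrial fatty acid oxidation. Much of the sequence without a gene record belongs to a few kinds of locus. Processed pseudogenes are copies of messenger RNAs that were reverse transcribed into the genome, usually far from their source gene and without its promoter. Unprocessed pseudogenes are decayed copies left by gene duplication, often beside their family, as in the clusters of the major urinary proteins (Mup), secreted pheromone carriers of mouse liver. Antisense transcripts run across a gene on the other strand.

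How far such a copy can be told from its source depends on the letters in which both differ. Shown first are 120-base stretches of 6 pseudogene members of the results, each the stretch within the coding part with the most differences, with the same stretch of the closest protein-coding gene under it. Sequences are GENCODE transcripts of release M21 on GRCm38, printed 5′ to 3′, and capitals mark the bases that differ within the pair. Gm7329 (chr1:65095227-65095436, plus strand) is a copy of part of Me1, which encodes the NADPH-forming malic enzyme, and differs at 2 bases in the stretch.
Gm7329: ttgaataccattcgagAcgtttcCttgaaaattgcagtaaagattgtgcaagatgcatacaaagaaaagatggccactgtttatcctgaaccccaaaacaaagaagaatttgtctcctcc
Me1: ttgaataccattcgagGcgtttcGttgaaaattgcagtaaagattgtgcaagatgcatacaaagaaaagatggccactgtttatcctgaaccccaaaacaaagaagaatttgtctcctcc
Gm13910 (chr2:108948806-108950233, plus strand) copies Hadhb, a subunit of the mitochondrial trifunctional protein of fatty acid oxidation, with 99.8% identity over 1428 bases and 1 difference in the stretch.
Gm13910: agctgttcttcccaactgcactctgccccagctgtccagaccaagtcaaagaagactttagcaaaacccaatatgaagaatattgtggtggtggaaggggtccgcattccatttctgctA
Hadhb: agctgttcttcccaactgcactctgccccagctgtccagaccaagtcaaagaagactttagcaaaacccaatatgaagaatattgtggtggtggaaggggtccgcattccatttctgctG
Rpl35a-ps2 (chr1:181241988-181242320, minus strand) copies Rpl35a, a protein of the large ribosomal subunit, with 99.7% identity. Rpl35a-ps4 on chromosome 2 has the same 333 bases with 0 differences.
Rpl35a-ps2: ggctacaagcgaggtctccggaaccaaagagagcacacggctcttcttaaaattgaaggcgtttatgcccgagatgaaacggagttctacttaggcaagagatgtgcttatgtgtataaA
Rpl35a: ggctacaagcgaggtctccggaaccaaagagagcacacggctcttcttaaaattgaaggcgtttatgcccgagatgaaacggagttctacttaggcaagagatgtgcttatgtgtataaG
Gm8885 (chr1:72087857-72088454, plus strand) copies Rpl15, another protein of the large ribosomal subunit, with 95.6% identity and 5 differences in the stretch.
Gm8885: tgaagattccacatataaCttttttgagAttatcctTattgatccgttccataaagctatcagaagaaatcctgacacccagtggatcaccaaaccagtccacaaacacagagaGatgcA
Rpl15: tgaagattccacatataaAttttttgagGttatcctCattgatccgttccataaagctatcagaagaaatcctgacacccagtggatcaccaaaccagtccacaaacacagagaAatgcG
Gm11212 (chr4:63350411-63353846, plus strand) lies among the orosomucoid genes, which encode acute-phase plasma proteins, and is 83.3% identical to Orm1, with 29 differences in the stretch.
Gm11212: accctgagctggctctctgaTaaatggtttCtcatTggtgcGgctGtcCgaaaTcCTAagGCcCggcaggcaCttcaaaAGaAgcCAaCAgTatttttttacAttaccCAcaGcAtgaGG
Orm1: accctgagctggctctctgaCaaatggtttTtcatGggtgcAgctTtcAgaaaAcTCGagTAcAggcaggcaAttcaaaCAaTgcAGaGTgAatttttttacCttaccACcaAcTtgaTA
Cyp4a28-ps (chr4:115138568-115156506, minus strand), named Cyp4a21 in the count files, lies near genes of the Cyp4 family of fatty acid hydroxylases and is 91.9% identical to Cyp4a29, with 13 differences in the stretch.
Cyp4a28-ps: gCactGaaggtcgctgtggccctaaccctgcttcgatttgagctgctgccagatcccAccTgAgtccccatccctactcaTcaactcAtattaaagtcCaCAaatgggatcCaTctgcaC
Cyp4a29: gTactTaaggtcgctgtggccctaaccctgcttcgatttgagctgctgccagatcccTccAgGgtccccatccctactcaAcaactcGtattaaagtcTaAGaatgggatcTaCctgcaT
The antisense locus Gm16984 runs across Eci2, which encodes an enoyl-CoA isomerase of unsaturated fatty acid oxidation. Its RefSeq promoter (GRCm38.p6, chr13:34963700-34963999, plus strand) is shown because this locus moved with the diets, with the 50 bases after the start in capitals.
Gm16984 promoter: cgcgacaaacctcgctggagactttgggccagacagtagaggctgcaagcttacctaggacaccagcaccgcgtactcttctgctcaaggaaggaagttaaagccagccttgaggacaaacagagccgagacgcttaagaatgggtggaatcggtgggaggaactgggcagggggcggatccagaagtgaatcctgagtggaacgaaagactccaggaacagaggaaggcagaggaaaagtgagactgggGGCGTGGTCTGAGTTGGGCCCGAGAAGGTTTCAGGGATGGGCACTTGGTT
The DR1 element, the direct repeat with 1 base between its copies that PPAR-RXR binds, was searched in its exact textbook form on both strands in windows of 300 bases. It occurred in 13 of 32851 RefSeq promoters (0.0396%) and in 0 of 86 promoters of the 59 tested members that have an entry, the Gm16984 promoter included, which says only that these letters are not in these windows.

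Most loci without an identifier gave no reads. Of the 21364 members, 4158 (19.5%) had any count in any library, and 1058 (4.95%) had at least 10 counts in all 3 libraries of at least 1 group, the threshold called detected here. Identified loci reached 63.3% and 44.1% by the same measures. The contrast was uneven by position. Of the 9437 members that overlap an identified locus on the same strand, only 101 (1.07%) had any count, and 47 (0.498%) were detected. Members that lie wholly inside an identified locus had a count in 157 of 11952 cases, against 4001 of 9412 members that do not. How reads over overlapping loci were assigned is not given in the sources used here, so a member at 0 inside another locus is taken as not measured.

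Detection was higher where members did not overlap an identified locus on the same strand. The 6702 members farther than 5 kb from any identified locus had a count in 34.4% of cases and were detected in 8.37%, which made 561 loci at a median distance of 31.3 kb from the nearest identified locus. Members that overlap an identified locus only on the opposite strand numbered 3297, of which 264 (8.01%) were detected. Within 5 kb without overlap, the detected share was 11.3% of 700 members after the end of a gene on its strand, 11.6% of 395 before its start, and 7.35% of 830 on the opposite strand. In the same order, 63.1%, 51.9% and 56.5% of these members had any count, above the 34.4% of members farther away. The other 3 members lay on sequences with no identified locus and had 0 counts. Detection differed by name as well, at 423 of 14322 members named by a cDNA accession and 471 of 5916 named by an Ensembl identifier.

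**Figure D1:**
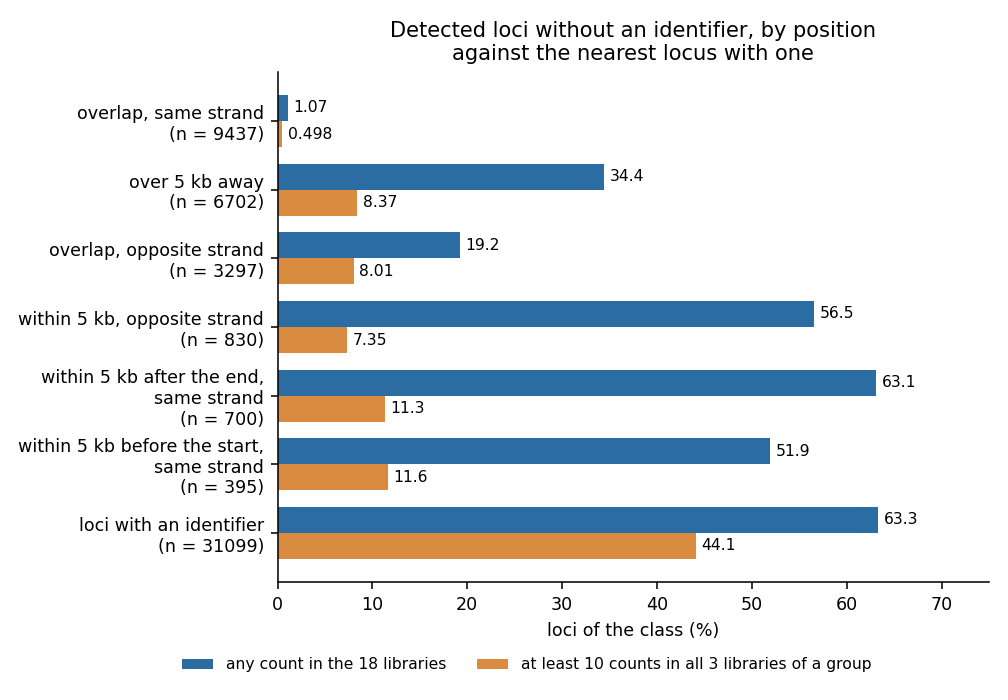
Share of members in each position class, in percent, with any count in any library and with at least 10 counts in all 3 libraries of a group. Members that overlap an identified locus on the same strand stand at 1.07% and 0.498%, under every class that lies beside or opposite a gene.

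Pseudogenes made up the largest annotated share of what was detected. Of the 5609 members whose identifier is in GENCODE, 5058 (90.2%) had the same start and end there. By place, 4539 members were processed pseudogenes, of which 487 were detected, and 1322 were unprocessed pseudogenes, of which 51 were. Another 441 antisense genes gave 49 detected members, 587 lincRNA genes gave 39, and 1877 loci of the GENCODE class TEC, whose status awaits experiments, gave 40. The 407 members at the place of a protein-coding gene gave 71. A further 11375 members, of which 280 were detected, matched no GENCODE gene by identifier, name or at least 50% of the joint span on the strand. Of these, 7840 (65 detected) overlapped a GENCODE gene on the strand by less, and 3521 (215 detected) overlapped none. The 198 immunoglobulin variable segments, which plasma cells and B cells transcribe, had a count in 122 cases and none was detected, with sums of 31 to 97 counts per library.

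Members took 0.604% to 1.54% of all counts in a library. Library totals were 69.8 to 152 M counts, and libraries of a group correlated at Pearson r of 0.978 to 0.990 (a description, n = 3 per group). Ppara itself stood at 50 to 82.5 CPM (counts scaled to a common effective library size) in the 9 WT libraries and 12.2 to 20.1 CPM in the 9 KO libraries, without overlap. The 7 hepatocyte markers summed to 45600 to 47100 CPM in WT control, 21000 to 25000 CPM in WT Wy and 19800 to 21300 CPM in WT fenofibrate, against 34400 to 53500 CPM in KO groups. The 10 of 11 Kupffer cell markers that were found, none at 0, summed to 76.5 to 84.2 CPM, 46.6 to 49.2 CPM and 44.0 to 56.0 CPM in the same 3 WT groups and to 83.8 to 141 CPM in KO groups. In the order WT control, Wy and fenofibrate, 6 infiltrating myeloid markers summed to 9.45 to 12.7, 5.70 to 6.53 and 5.36 to 8.75 CPM. The 7 stellate markers (1 at 0) summed to 57.3 to 69.6, 45 to 48.9 and 50 to 50.9 CPM, and the 4 pancreas markers (2 at 0) to 6.56 to 6.92, 1.70 to 1.97 and 1.63 to 2.36 CPM. The 5 erythroid markers (1 at 0) summed to 176 to 233, 282 to 358 and 126 to 324 CPM. For 6 endothelial markers the sums were 36.6 to 51.3, 35.5 to 38.3 and 35.6 to 44.8 CPM. For 5 cholangiocyte markers they were 11.2 to 11.8, 7.27 to 13.1 and 5.83 to 8.59 CPM. Near the floor, 3 adipose markers (1 at 0) gave 0 to 0.0509, 0.223 to 0.292 and 0.0726 to 0.25 CPM. There 5 lymphocyte markers (1 at 0) gave 0.115 to 0.331, 0.0772 to 0.123 and 0.0626 to 0.184 CPM. In KO groups the sums ran from 8.32 to 16.5 CPM for infiltrating myeloid, 70.7 to 80.7 for stellate and 3.66 to 9.08 for pancreas markers. They ran from 131 to 544 CPM for erythroid, 41.8 to 59.1 for endothelial and 8.43 to 12.9 for cholangiocyte markers. Adipose markers gave 0 to 0.0234 and lymphocyte markers 0.176 to 0.426 CPM in KO groups. Scaled by library totals instead, all tested loci shifted by a median of 0.81 on the log2 scale with either diet in WT. The marker sums were not taken under that scaling, so whether their falls in WT hold there is not shown. In bulk liver, fewer cells of a type and less RNA per cell cannot be told apart, and the part of these shifts in the results was not tested.

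A handful of loci held most of the members' reads. The mitochondrial loci Cytb, ND1 and URF2 took 17.6%, 16.9% and 12.4% of all member counts. Cytb encodes cytochrome b of respiratory complex III. URF2 lies at the place of mt-Nd2, a subunit of complex I. The locus named ND1 spans 2748 bases (1094 to 3841) and was matched by place to the large mitochondrial ribosomal RNA, mt-Rnr2. Such a match needs only part of the joint span, so how much of the ND1 counts comes from mt-Rnr2 is not shown. The pseudogenes Mup-ps17 and Mup-ps19 followed with 9.05% and 2.08%, then AK144717 (1.88%), EG665937 (1.65%), GXL_690043 (1.43%) and Mup-ps18 (1.24%). Most members were faint by comparison. Among the 1266 members that passed the filter on low counts, the median level was 0.345 CPM per kb of exon, against 0.598 CPM per kb for identified loci that passed it.

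Loci with near-equal counts could not be separated. Of 405 members with at least 50 counts in every library, 21 fell into 16 sets whose counts agreed within 5% in all libraries, and 12 of those sets also held an identified locus. Some sets were entries over the same genes rather than copies elsewhere. GXL_690043 stood with 7 Ugt1a loci, and Hist1h2bq/Hist1h2br with Hist1h2bq and Hist1h2br. Gm12671, a copy of Gapdh with 100% identity over 1002 bases, and Gm10359 took 1.09% and 1.07% of member counts. Rpl35a-ps2 and Rpl35a-ps4 gave near-equal counts. How reads matching several places or overlapping entries were counted is not given in the sources used here. Levels and changes of such loci are therefore uncertain as to which copy or entry they belong to.

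In WT liver both diets changed many of these loci, more often upward. With Wy, 345 of 1266 tested members (27.3%) passed the test, 249 higher and 96 lower, where 38.2% of all 15507 tested loci passed. The higher calls were 19.7% of members against 19.5% of all tested loci, and the lower calls 7.58% against 18.7%. The median log2 fold change of the tested members was 0.21, beside -0.01 over all tested loci. With fenofibrate, 300 members (23.7%) passed, 218 higher and 82 lower, where 35.4% of all tested loci passed, with higher calls at 17.2% against 18.5% and lower calls at 6.48% against 16.9%. Scaled by library totals in place of TMM, all tested loci shifted by a median of 0.81 with either diet, and the higher share of member calls became 97.2% with Wy and 97.0% with fenofibrate.

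**Figure D2:**
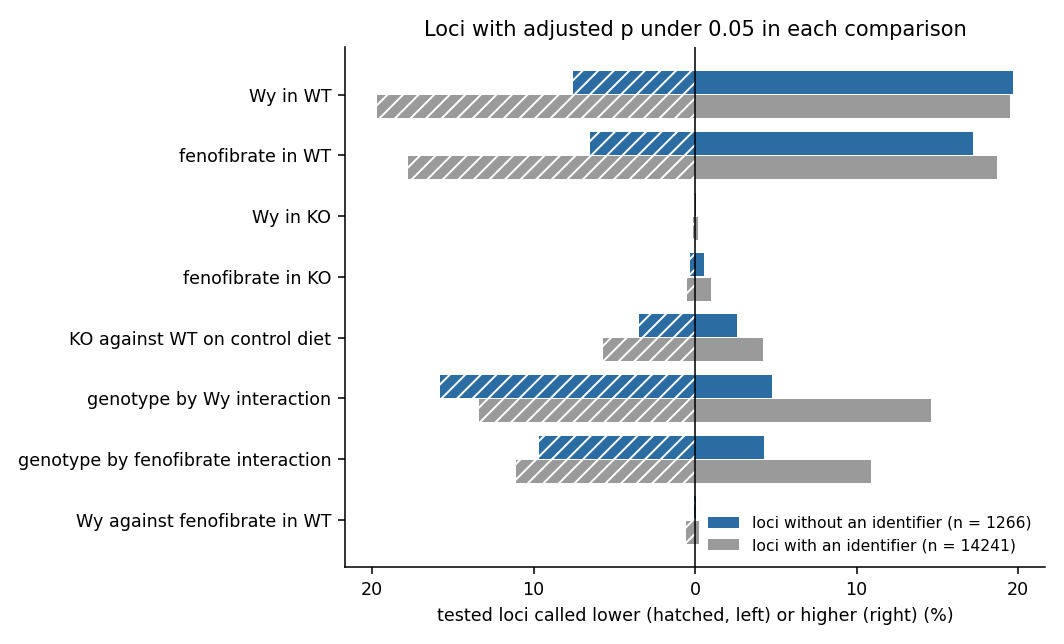
Percent of tested loci called higher (right) and lower (left, hatched) in each of 8 comparisons (edgeR quasi-likelihood test, adjusted p under 0.05), for 1266 members (blue) and 14241 identified loci (grey). With Wy in WT the member bars reach 19.7% higher and 7.58% lower, and the bars of the diets in KO stay under 1%.

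Level mattered for these counts. With Wy, 17.7% of members under 1 CPM were called against 26% of identified loci in that range, whereas members of 1 to 10 CPM were called in 46.2% of cases against 39%, and members of at least 10 CPM in 64.1% against 55.9%. With fenofibrate the shares were 16.4% against 22.6%, 37.1% against 36.6% and 55.4% against 53.5%. By kind, 134 of 569 processed pseudogenes rose with Wy (23.6%) and 14 fell, and 105 rose (18.5%) and 9 fell with fenofibrate. Of all tested loci, 19.5% rose and 18.7% fell with Wy, and 18.5% rose and 16.9% fell with fenofibrate. The higher share of the class was thus the same as over all tested loci with fenofibrate, and its falls were fewer with both diets. Unprocessed pseudogenes had 5 of 62 higher (8.06%) and 14 lower with Wy, and 6 higher (9.68%) and 12 lower with fenofibrate. In total 30.6% and 29% were called, beside 38.2% and 35.4% of all tested loci. The higher shares were below the 19.5% and 18.5% of all tested loci, of which 18.7% and 16.9% were lower. The median log2 fold change with Wy was -0.26, which under library totals was 0.56 and so below the shift of all loci. Mup pseudogenes had 9 of 16 tested members lower and 0 higher with Wy. Those named below are unprocessed, so a single gene family may make up much of these lower calls. LincRNA genes split evenly with Wy, with 7 of 51 higher and 8 lower, and antisense genes gave 7 of 53 higher and 5 lower. That was 29.4% and 22.6% called, where 38.2% of all tested loci were. These class shares describe how the calls fell and were not compared by a test.

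Cyp4a28-ps had counts only in drug-fed WT liver. It had 0 counts in all 3 WT control libraries and in all 9 KO libraries, 5.19, 4.88 and 4.51 CPM with Wy in WT, and 3.81, 4.67 and 4.85 CPM with fenofibrate in WT. Both diet groups stood wholly above the control group. Against a floor of 3 counts over the control group this was at least 477-fold higher with Wy (edgeR adjusted p = 2.4e-09) and at least 433-fold higher with fenofibrate (edgeR adjusted p = 3.1e-09). Both bounds hold for counts and not for the transcript, since how reads matching several places were counted is not given. The nearest identified locus, Cyp4x1, lies 4.29 kb away and did not pass the test with either diet (log2 fold changes of 0.14 ± 0.29 and 0.47 ± 0.29, SE). Cyp4a29, the coding gene it matches in sequence, gave 0, 1.17 and 0.483 CPM in WT control, 16.2, 30.9 and 22.8 CPM with Wy and 0.100, 1.53 and 3.22 CPM with fenofibrate. It rose with Wy (5.42 ± 1.02, SE, edgeR adjusted p = 0.00052) and did not pass with fenofibrate (1.57 ± 1.01, edgeR adjusted p = 0.25), where its groups overlapped.

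Both copies of fixed PPARA targets among the tested pseudogenes followed the target. Gm7329, the Me1 copy, gave 0.919, 1.23 and 1.07 CPM in WT control, 9.24, 8.44 and 6.91 CPM with Wy and 6.81, 4.74 and 7.39 CPM with fenofibrate. In KO libraries it stood at 0.285 to 0.838 CPM, below all WT libraries. The log2 fold change with Wy in WT was 2.93 ± 0.20 (SE, edgeR adjusted p = 1.6e-09), beside 2.85 for Me1, and with fenofibrate 2.56 ± 0.20 beside 2.66. Gm13910, the Hadhb copy, lies 142 kb from the nearest identified locus, Mettl15. It gave 3.22, 3.58 and 3.43 CPM in WT control, 15.2, 13.9 and 14.8 CPM with Wy, 12.8, 12.1 and 13.2 CPM with fenofibrate, and 1.76 to 2.56 CPM in KO libraries. The 3 WT groups did not overlap and stood above every KO library. It rose by 2.10 ± 0.10 with Wy (SE, edgeR adjusted p = 6.5e-12), where Hadhb rose by 2.07 on the log2 scale, while Mettl15 had 0.03 ± 0.21.

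Other members rose from low levels. Hsp25-ps1, named 25kDa in the files, copies Hspb1, a small heat shock chaperone, with 99.4% identity. It went from 0.0643, 0.132 and 0.046 CPM in WT control to 1.30, 1.31 and 1.05 CPM with Wy and 0.735, 0.985 and 1.21 CPM with fenofibrate, again without overlap. The log2 fold change was 3.89 ± 0.45 with Wy (SE, edgeR adjusted p = 1.6e-06), and Hspb1 itself had 3.22. The member also overlaps Gm9817 on the opposite strand, which had 3.81 ± 0.54 with Wy and 3.40 ± 0.54 with fenofibrate. AK149411, a cDNA locus on chromosome 13 (68232867 to 68234060, minus strand), gave 3.34, 2.86 and 2.69 CPM in WT control and 18.2, 17 and 20.9 CPM with Wy. That was a log2 fold change of 2.65 ± 0.16 (SE, edgeR adjusted p = 2.8e-10), with 2.38 ± 0.16 for fenofibrate. AK031991 lies 4.67 kb after the end of Rab30, a small GTPase of the Golgi, on the same strand. It rose from 0.184 to 0.239 CPM in WT control to 1.23 to 1.59 CPM with Wy, a log2 fold change of 2.73 ± 0.25 (SE, edgeR adjusted p = 1e-07), where Rab30 rose by 3.26 ± 0.20.

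**Figure D3:**
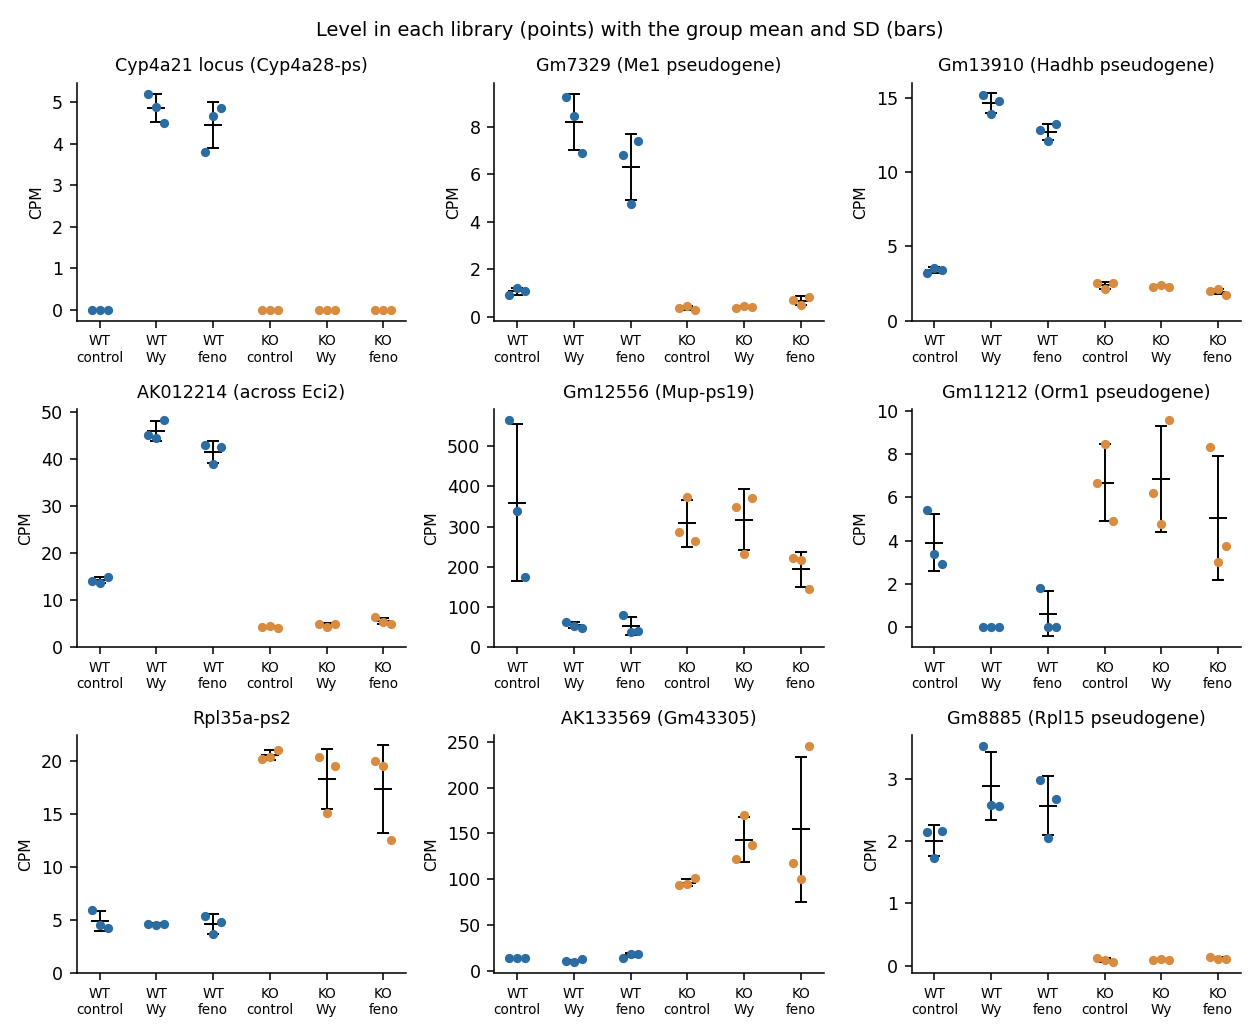
CPM (vertical, linear) of 9 members in each of the 18 libraries (points; WT blue, KO orange) with the mean and SD of each group of 3 (bars). Cyp4a28-ps, Gm7329, Gm13910 and AK012214 (Gm16984) are high only with the diets in WT, Mup-ps19 and Gm11212 are low there, and Rpl35a-ps2, Gm43305 and Gm8885 separate WT from KO.

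Some but not all Mup pseudogenes fell in WT. This family, picked out after its values were seen, had 0 of 16 tested members higher and 9 lower with Wy, and 0 higher and 7 lower with fenofibrate, at a median log2 fold change of -1.75 with Wy that stayed negative (-0.94) under library totals. Mup-ps19 gave 565, 338 and 175 CPM in WT control, 61.8, 53.0 and 48.1 CPM with Wy and 79.0, 38.3 and 40.5 CPM with fenofibrate. The control pools differed by more than 3 times among themselves, yet all stood above both diets, and the log2 fold change with Wy was -2.73 ± 0.35 (SE, edgeR adjusted p = 6e-06). Mup20, the closest coding gene of Mup-ps19, did not pass with Wy (-0.15 ± 0.41, edgeR adjusted p = 0.81) and had -1.15 ± 0.41 with fenofibrate. Of the 3 tested coding Mup genes that the family matches, 1 was lower with Wy (median -0.4) and 3 with fenofibrate (median -1.15). Mup-ps17, the most abundant of the family, did not pass, with 1020, 932 and 447 CPM in WT control and 1850, 340 and 749 CPM with Wy. Its groups overlapped, and its log2 fold change of 0.29 ± 0.46 (SE) became -0.51 without WT Wy replicate 1.

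Gm11212, the orosomucoid copy, had no counts with Wy in WT. It gave 5.41, 3.37 and 2.93 CPM in WT control, 0 counts in all 3 Wy libraries, and 1.81, 0 and 0 CPM with fenofibrate. In KO it stood at 3.02 to 9.59 CPM on every diet. In counts, the fall with Wy was at least 470-fold against a floor of 3 counts over the group (edgeR adjusted p = 0.00024). How reads matching several places were counted is not given, so this bound holds for counts and not for the transcript. The fenofibrate libraries had 217, 0 and 0 counts. Their fold change of -2.64 ± 0.84 (SE, edgeR adjusted p = 0.021) was not called by DESeq2 (-2.69). It also lost its call without WT control replicate 1 (-2.32) or WT fenofibrate replicate 2 (-2.09) or 3 (-2.06). Orm3, 0.895 kb away, had -6.61 ± 1.20 with Wy, and Orm1 had -2.1.

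Both Gm16332 and Gm5834 lie by Cfhr2, a complement factor H-related gene, at 3.50 kb and 80.9 kb. Gm16332 gave 56.7, 57.7 and 40.7 CPM in WT control, 17.8, 10.2 and 19.1 CPM with Wy and 25.7, 19.9 and 25.5 CPM with fenofibrate, but 112 to 185 CPM in all 9 KO libraries. It fell with Wy by 1.72 ± 0.19 on the log2 scale (SE, edgeR adjusted p = 8.3e-07) and was higher in KO control by 1.36 ± 0.19 (SE, edgeR adjusted p = 5.7e-05). Cfhr2 fell with Wy as well (-1.69 ± 0.11) but was lower, not higher, in KO control (-1.58 ± 0.11). Gm5834 was likewise lower with Wy (-1.95 ± 0.23) and higher in KO control (1.68 ± 0.21). By sequence the closest coding gene of both members is Gm4788, which was not set beside them here. Cfhr2 is a neighbour only, so whether the members depart from their closest coding gene is not shown.

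A pair of further falls stood beside genes that fell. AK087253 lies 0.395 kb from Egfr, the epidermal growth factor receptor, on the opposite strand, and had log2 fold changes of -2.68 ± 0.28 with Wy and -2.74 ± 0.28 with fenofibrate (SE, edgeR adjusted p = 4.4e-07 and 4.6e-07), where Egfr had -1.64 ± 0.12 and -1.22 ± 0.12. Gm8941 is 87.2% identical to Gapdh but lies 0.254 kb before the start of C730036E19Rik. It gave 2.50, 2.24 and 2.15 CPM in WT control, 0.377, 0.312 and 0.386 CPM with Wy and 0.0585, 0.0933 and 0.224 CPM with fenofibrate. It therefore fell with both diets without overlap (-2.67 ± 0.34 and -4.19 ± 0.39, SE), as did C730036E19Rik (-3.46 ± 0.53 and -4.01 ± 0.57), whereas Gapdh had 0.36.

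Members that share their place with a gene moved with it in WT. Among 293 tested members that overlap a tested identified locus on the opposite strand only, 72 were called with Wy. Over all tested loci, 38.2% were called. In 61 of the 72 pairs both were called, all 61 in the same direction. With fenofibrate this held for 56 of 56 such pairs. The log2 fold changes of member and partner correlated across the 293 pairs at r = 0.70 with Wy in WT and at 0.01 with Wy in KO (descriptions; pairs share libraries). Among 87 members after the end of a gene on its strand, r was 0.61, and 13 of 14 pairs with both called went the same way. Partners of other nearby members were called less often. Of 35 members before a start, 14 were called with Wy, and 5 of these had a called partner, 4 in the same direction. Of 51 within 5 kb on the opposite strand, 9 were called and 3 had a called partner, all in the same direction. Although the libraries were made with a stranded kit, the strand setting of the counting is not given, so reads of a gene and of its antisense partner cannot be told apart.

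Gm16984, named AK012214 in the files, runs across a PPARA target, Eci2. It also overlaps the identified locus 9430081G06Rik on its own strand, which was not tested, and so is not among the 293 pairs. It gave 14, 13.7 and 14.9 CPM in WT control, 45.2, 44.5 and 48.4 CPM with Wy, 43.1, 38.9 and 42.5 CPM with fenofibrate and 4.13 to 6.30 CPM in KO. The 3 WT groups did not overlap, and all of them stood above every KO library. The log2 fold change was 1.69 ± 0.09 with Wy and -1.73 ± 0.09 in KO control (SE, edgeR adjusted p = 4.6e-11 and 6.3e-10), beside 1.75 and -1.68 for Eci2. Gm16537 (AK140856), across the glycerol-3-phosphate dehydrogenase gene Gpd1, gave 5.04, 5.33 and 5.20 CPM in WT control and 13.2, 13 and 12.9 CPM with Wy. It rose by 1.33 ± 0.15 (SE, edgeR adjusted p = 1.1e-06), where Gpd1 rose by 1.35 ± 0.15. AK019493, across the pantothenate kinase gene Pank1, rose by 1.67 ± 0.20 with Wy and 1.91 ± 0.20 with fenofibrate (SE, edgeR adjusted p = 2.2e-06 and 4.4e-07), beside 1.08 ± 0.08 and 1.20 ± 0.08 for Pank1.

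Few members sit at PPARA targets. Of 90 listed targets, 29 had a member within 5 kb or overlapping, 40 members in all, of which 10 had any count and 4 were tested. With each diet in WT, 2 of the 4 rose (Gm16984 and Gm16537) and 0 fell. The other tested members were AK042528 beside the peroxisomal thioesterase gene Acot8, with a log2 fold change of -0.53 with Wy where Acot8 had 2.3, and AK079002 beside the thiolase gene Acaa2, with 0.46 where Acaa2 had 1.15.

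**Figure D4:**
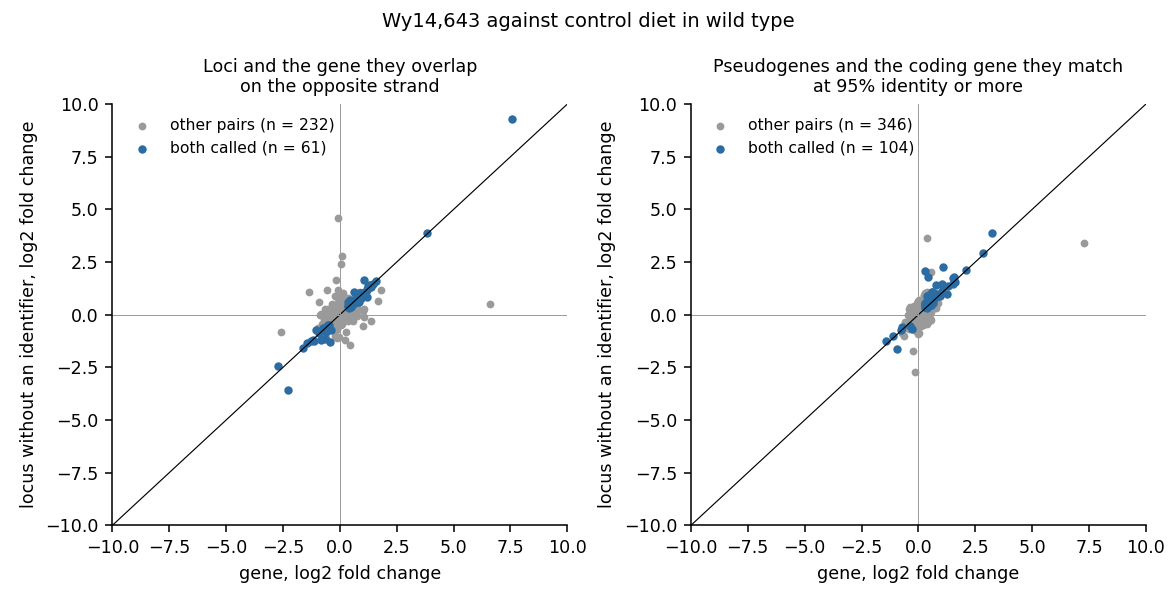
Log2 fold change with Wy in WT of each member (vertical) against that of the locus it is paired with (horizontal), on the left the gene overlapped on the opposite strand (293 pairs) and on the right the coding gene matched at 95% identity or more (450 pairs). Blue points are pairs with both called (61 and 104), all of them in the same direction, and the diagonal marks equal change.

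Most tested pseudogene members were close copies of an active gene. Of 654, 611 had a coding match over most of their length, at a median identity of 98%, and 547 had a match that was tested. Per kb of exon, the member's level was 6.04% of the match's in the median, and 17 members stood above their match. Among 450 pairs of at least 95% identity, fold changes with Wy in WT correlated at r = 0.73, and all 104 pairs with both called went the same way, as did all 83 with fenofibrate. Another 18 members were called with Wy without their match. For the 24 pairs under 90% identity, 7 had both called with Wy, of which 4 went the same way. Many members share a match, with 52 matched to Gapdh, 22 to Rps2 and 13 to Rpl21, so the pairs are not separate comparisons. These are descriptions across loci that share libraries and may share reads.

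A pair of families of copies was picked out after their values were seen. Copies of ribosomal protein genes had 50 of 178 members higher and 1 lower with Wy, at a median log2 fold change of 0.39, and 21 higher and 1 lower with fenofibrate. That was 28.1% higher with Wy and 11.8% with fenofibrate, beside 19.5% and 18.5% of all tested loci. With Wy, 21 of 52 coding ribosomal protein genes were higher and 0 lower, at a median of 0.27. Copies of Gapdh, the glycolytic enzyme, had 37 of 78 higher and 1 lower with Wy and 36 higher and 1 lower with fenofibrate (47.4% and 46.2% higher), where Gapdh itself rose by 0.36 with each diet. Gm12671 rose by 0.38 ± 0.08 with Wy (SE, edgeR adjusted p = 0.00072). Under library totals the medians of both families were 1.20 with Wy, above the shift of all loci. Of the mitochondrial loci, ND1 rose by 0.43 ± 0.09 with Wy (SE, edgeR adjusted p = 0.00063), and Cytb fell by 0.33 ± 0.11 on the log2 scale (SE, edgeR adjusted p = 0.021), a sign that turned to 0.48 under library totals. The fall of Cytb was not called without WT control replicate 2 (-0.30) or 3 (-0.31) or WT Wy replicate 1 (-0.24) or 3 (-0.33).

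In KO liver few of these loci passed. With Wy, 1 of 1266 members was called (0.079%), where 0.239% of all tested loci were (0.148% higher and 0.0903% lower), and 157 members had an unadjusted p under 0.05. That member, AK040954 on chromosome 12 (32751319 to 32770956, minus strand), gave 0.263, 0.315 and 0.265 CPM in KO control and 1.42, 1.44 and 1.17 CPM with Wy, without overlap. Its log2 fold change of 2.26 ± 0.35 (SE, edgeR adjusted p = 0.011) lost its call without KO control replicate 1 (2.21) or replicate 2 (2.35). In WT it stood at 2.21, 1.14 and 1.39 CPM in control and at 1.02, 1.63 and 2.26 CPM with Wy. Under library totals, where all loci shifted by a median of -0.36, 255 members were called, 1 higher and 254 lower.

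Fenofibrate in KO called 11 members (0.869%), 7 higher and 4 lower, where 1.44% of all tested loci passed (0.948% higher and 0.497% lower). The largest rise was AK087215, a locus chosen after its values were seen, which lies 10.7 kb from Cyp2b10, the drug-metabolizing cytochrome induced through the receptor CAR. It gave 0, 0.0712 and 0.0612 CPM in KO control and 0.484, 0.553 and 1.30 CPM with fenofibrate, without overlap, a log2 fold change of 4.16 ± 0.64 (SE, edgeR adjusted p = 0.0029). Cyp2b10 rose by 3.67 ± 0.39 (SE, edgeR adjusted p = 3.4e-05) in the same libraries. AK149411, which rose in WT, also rose here, from 3.23 to 3.65 CPM to 4.85 to 7.74 CPM (0.86 ± 0.16 on the log2 scale, edgeR adjusted p = 0.0094). Also higher were AK075710 (1.42 ± 0.32), AK035396 (1.57 ± 0.34), the histone locus Hist1h2bq/Hist1h2br (0.89 ± 0.18), ENSMUSG00000083529 (1.26 ± 0.25) and AK029441 (1.45 ± 0.34). Most of these were called higher in WT too, with Wy and fenofibrate in that order. AK075710 had 1.51 and 1.32 there, AK035396 1.68 and 1.69, ENSMUSG00000083529 2.34 and 2.35, and AK029441 1.42 and 1.51. AK087215 and the histone locus did not pass in WT with either diet. Hist1h2bq, the identified locus that the histone locus overlaps at near-equal counts, had 0.92 ± 0.18. AK029441, chosen after its values were seen, gave 16.8, 16.4 and 19.5 CPM in KO control and 47.4, 18.3 and 78.0 CPM with fenofibrate, so its groups overlapped. With fenofibrate, AK075710 (16.2, 6.9 and 24.1 CPM) and AK035396 (4.36, 1.76 and 6.87 CPM) had the same order of libraries. When each of the 18 libraries was left out in turn, AK087215 kept its call in every fit, whereas AK149411 (0.83 in both) and the histone locus (0.75 and 0.94) lost theirs without KO control replicate 1 or 2. AK075710 fell to 0.98 and AK035396 to 1.07 without KO fenofibrate replicate 3, and both also lost their calls without any 1 of the 3 KO controls, as did AK075710 without KO fenofibrate replicate 1 (1.40). ENSMUSG00000083529 lost its call in 3 of these fits (1.05 to 1.16) and AK029441 in 12 (0.90 to 1.53).

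The 4 lower members in KO with fenofibrate included Gm6652, 99.3% identical to the sorbitol dehydrogenase gene Sord (-0.39 ± 0.09), Gm6969 (-0.67 ± 0.16) and Gm14165, a copy of the ribosomal protein gene Rplp0 (-0.72 ± 0.17, SE). The fourth was AK139615 (-2.64 ± 0.55), chosen after its values were seen. It lies near the floor, with 46, 29 and 15 counts in KO control and 2, 7 and 5 counts with fenofibrate. Leaving out a library ended the call in 9 of 18 fits for Gm6652 (-0.45 to -0.32), 13 for Gm6969 (-0.71 to -0.50), 12 for Gm14165 (-0.78 to -0.52) and 4 for AK139615 (-2.63 to -2.27). The count of 11 fell to 0 when only the libraries of both groups were fitted, where 93 members had an unadjusted p under 0.05, and it was 28 by DESeq2. It ranged from 1 to 31 when a library was left out, and was lowest without KO control replicate 1 or 2.

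The difference of the diet response between genotypes was tested directly. For Wy, 260 members (20.5%) had a called interaction, 60 more positive and 200 more negative in KO than in WT, where 27.4% of all tested loci were called (13.8% and 13.6%). For fenofibrate, 176 members (13.9%) were called, 54 more positive and 122 more negative, where 21.3% of all tested loci were (10.4% and 10.9%). Gm13910 had interactions of -2.14 ± 0.14 for Wy and -2.18 ± 0.14 for fenofibrate (SE, edgeR adjusted p = 2.1e-09 and 2.4e-09), Gm7329 had -2.79 ± 0.33 for Wy (edgeR adjusted p = 4.5e-06) and AK087253 had 3.09 ± 0.35 (edgeR adjusted p = 3e-06). Under library totals, where all loci shifted by medians of -1.17 and -0.77, 826 and 580 members were called, and only 1.82% and 3.28% of them were more positive. For Cyp4a28-ps, with all KO libraries at 0, neither fitted interaction was called (edgeR adjusted p = 1.0 for each diet), although both responses in WT were.

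Without a drug fewer members were called between the genotypes than with either diet in WT. On the control diet 77 members (6.08%) differed between KO and WT, 33 higher and 44 lower in KO, where 9.55% of all tested loci did (4.05% higher and 5.5% lower). Under library totals, which shifted all loci by a median of 0.33, 213 members were called, of which 87.3% were higher. The count ranged from 41 to 97 when a library was left out and was lowest without KO control replicate 2.

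A pair of ribosomal protein copies differed between the genotypes where the coding match did not pass the test. Gm8885, the Rpl15 copy, gave 2.14, 1.72 and 2.16 CPM in WT control and 0.118, 0.0814 and 0.0510 CPM in KO control. All 9 WT libraries, at 1.72 to 3.52 CPM, stood above all 9 KO libraries, at 0.0510 to 0.140 CPM. The log2 fold change in KO control was -4.55 ± 0.25 (SE, edgeR adjusted p = 7.7e-10), where Rpl15 had 0.19 (edgeR adjusted p = 0.35). Rpl35a-ps2 differed the other way, with 5.97, 4.55 and 4.25 CPM in WT control against 20.2, 20.4 and 21.1 CPM in KO control, and 12.6 to 20.4 CPM in the other KO libraries. It was higher in KO control by 2.06 ± 0.18 (SE, edgeR adjusted p = 2e-07), and its twin Rpl35a-ps4 by 2.05 ± 0.17, while Rpl35a had -0.25 (edgeR adjusted p = 0.35). Which of these identical copies gave the reads cannot be told apart.

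Other members differed between KO and WT on the control diet. Gm43305 (AK133569) on chromosome 14 (54292443 to 54295986, minus strand) gave 14, 14.1 and 14 CPM in WT control and 93.5, 94.5 and 101 CPM in KO control. It was higher in KO control by 2.78 ± 0.24 (SE, edgeR adjusted p = 3e-07), and its KO libraries on the diets reached 245 CPM. Glns-ps1, a copy of the glutamine synthetase gene Glul with 96.8% identity, was higher by 1.40 ± 0.21 (SE, edgeR adjusted p = 0.00017), where Glul had 0.12. Gm13443, a copy of the glyoxalase gene Glo1, gave 11.9, 12.7 and 13.6 CPM in WT control against 3.66, 0.600 and 1.62 CPM in KO control. It was lower by 2.68 ± 0.58 on the log2 scale (SE, edgeR adjusted p = 0.0047), where Glo1 had -0.62. Among close copies of at least 95% identity, 34 members differed between KO and WT, their match also did in 17 pairs, and 11 of these went the same way.

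The copies Gm7329 and Gm13910 of PPARA targets were lower in KO control. Gm7329 had a log2 fold change of -1.51 ± 0.23, beside -1.6 for Me1, and Gm13910 had -0.51 ± 0.10, beside -0.59 for Hadhb (SE, edgeR adjusted p = 0.00023 and 0.0017 for the members). AK031991 was lower by 2.71 ± 0.41 on the log2 scale (SE, edgeR adjusted p = 0.00017), where Rab30 had -3.33 ± 0.25. Not all members that rose with the diets were lower in KO control: Hsp25-ps1 was higher by 1.69 ± 0.51 (SE, edgeR adjusted p = 0.043, a call lost in 11 of 18 fits with a library left out, at 1.44 to 1.70), and AK019493 did not pass (-0.38 ± 0.22). The histone locus Hist1h2bq/Hist1h2br, which did not pass with either diet in WT, was lower by 1.28 ± 0.18 on the log2 scale (SE, edgeR adjusted p = 9e-05). Hist1h2bq, which it overlaps, had a log2 fold change of -1.29 ± 0.18.

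The drugs themselves, which differ in dose in the diet, were set side by side in WT. Between Wy and fenofibrate 2 members differed (0.158%), where 0.748% of all tested loci did (0.251% higher with Wy and 0.497% lower). AK037052, 0.961 kb after the end of the monocarboxylate transporter gene Slc16a12, gave 1.03, 1.26 and 1.15 CPM with Wy and 0.860, 0.560 and 0.689 CPM with fenofibrate, a log2 difference of 0.69 ± 0.16 (SE, edgeR adjusted p = 0.048) that did not pass under library totals (0.72). AK139628 on chromosome 16 (24122699 to 24286380, minus strand), chosen after its values were seen, gave 0.162, 0.0850 and 0.129 CPM with Wy and 0.317, 0.342 and 0.313 CPM with fenofibrate, a difference of -1.34 ± 0.24 (SE, edgeR adjusted p = 0.010). Neither pair of groups overlapped. Against WT control both members fell with Wy and with fenofibrate, AK037052 by log2 fold changes of -0.99 ± 0.15 and -1.69 ± 0.15. AK139628 had -2.51 ± 0.23 and -1.17 ± 0.20, and Slc16a12 had -0.67 ± 0.08 and -0.81 ± 0.08 (SE). Under library totals AK037052 with Wy (-0.18) and AK139628 with fenofibrate (-0.36) were not called. AK037052 lost its call in 14 of the 18 fits with a library left out (0.57 to 0.78), and AK139628 lost its call without WT Wy replicate 2 (-1.13) or 3 (-1.34).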

How the data were processed

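Per the file headers, each deposited file lists loci with a whole-number read count, and the counts were taken unchanged. Libraries were made with a stranded mRNA kit from total RNA, per the labels' protocols. The submitters' processing notes name bcl2fastq 2.17, Trimmomatic 0.30, TopHat2 2.0.8, Picard 1.84 and the mm10 build, whereas which tool counted the reads, with which strand setting and with what treatment of reads with several matches, is not given in the sources used here. Left out were 12 blank or total rows in 6 files, and 5 read columns that match no sample.

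Members were placed against identified loci by the files' own coordinates and matched to GENCODE M21 by identifier or name, or by overlap of at least 50% of the joint span on the same strand. Closest coding genes of pseudogenes were found with blastn 2.17.0 over at least 80% of the member.

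A quasi-likelihood F-test (edgeR 4.0.16, R 4.3.3) was run in 1 fit of 18 libraries with TMM scaling, filterByExpr, a coefficient per group and no block. P-values were adjusted by Benjamini-Hochberg over all 15507 tested loci, at a threshold of 0.05, and every adjusted p printed is of this fit. The SE was taken as the log2 fold change divided by the root of its F statistic, and CPM use the TMM effective library size. Scripts were tested on simulated data. P-values rest on the spread between pools, and 3 against 3 libraries alone cannot give a permutation p under 0.1. Named loci are the largest called changes without overlap and at 1 CPM or more, the most abundant members, and called members at PPARA targets. Alternatives were DESeq2 1.42.0, library totals, no filter, the groups compared alone, a replicate block, leaving out the Mup loci and leaving out each library. The members, lists and tests were chosen with earlier results of these data known. Counts of 0 and low CPM carry counting error besides.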

Additional observations from a re-analysis of the deposited data

Results flagged for a closer look

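The diet response differed between the genotypes by a test of the interaction, KO minus WT, in 260 members for Wy and 176 members for fenofibrate. The members named for each interaction are the 3 largest each way whose higher group averaged at least 1 CPM. For Wy they were Gm7329 (ENSMUSG00000100774, -2.79), Hsp25-ps1 (25kDa, -4.0) and ENSMUSG00000083360 (-2.45), which rose in WT, and AK087253 (3.09), Gm11212 (ENSMUSG00000082141, 11.71), which fell in WT, and Gm5656. The value of Gm11212 rests on 0 counts in WT Wy, depends on the prior count of the fit and is no bound. For fenofibrate they were Gm5656 and Gm8552, described next, with Gm8941 (ENSMUSG00000097426, 4.42), AK019493 (-1.89), Gm13910 (ENSMUSG00000063684, -2.18) and AK031991 (-2.50, and -2.32 and not called without KO control replicate 3).

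Few libraries carry the values of Gm5656 and Gm8552. Gm5656 (ENSMUSG00000090478) had fitted interactions of 23.3 for Wy and 24.21 for fenofibrate, which depend on the prior count. It gave 4.38, 0 and 16.7 CPM in WT control, 6.13, 0 and 0 CPM in KO Wy, and 5.09, 6.88 and 0 CPM in KO fenofibrate, with 0 counts in all other libraries. The Wy interaction was not called without KO Wy replicate 1 (12.51), and the fenofibrate interaction kept its call in every fit with a library left out. Gm8552 (Mup-ps16) had a fenofibrate interaction of 7.84 with 108, 0.795 and 0.207 CPM in KO fenofibrate, and without KO fenofibrate replicate 1 it was 1.64 and not called.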

How the results depend on the processing

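Under library totals the members called were 836 for Wy in WT, 832 for fenofibrate in WT, 255 for Wy in KO, 8 for fenofibrate in KO, 213 for KO against WT, 826 and 580 for the interactions with Wy and fenofibrate, and 0 for Wy against fenofibrate, where 56 had an unadjusted p under 0.05. DESeq2 called 5 for Wy in KO, 28 for fenofibrate in KO and 7 for Wy against fenofibrate. Without the filter on low counts these were 4, 18 and 6. Fitting only the groups compared gave 3, 0 and 1. Leaving out each library gave 0 to 6 for Wy in KO, 1 to 31 for fenofibrate in KO, 41 to 97 for KO against WT and 0 to 4 for Wy against fenofibrate. It gave 271 to 388 for Wy in WT and 221 to 327 for fenofibrate in WT. With a replicate block, the calls for Wy against fenofibrate went from 2 to 1, and the other counts stayed within 1.5 times. Libraries of the same number did not deviate together (median correlation 0.02 over 45 pairs, 0 over 90 pairs of different numbers), so the numbers do not pair them. Detected members were 2386 at a minimum of 1 count and 587 at 50 counts. Members within the window without overlap, 1925 at 5 kb, were 678 at 1 kb and 2951 at 10 kb, and at 10 kb 4 members near PPARA targets rose with each diet in WT, while 1 fell with fenofibrate. Signs turned under library totals for Cytb (0.48 with each diet in WT), AK140219 (0.37 with Wy, 0.22 with fenofibrate), Gm12562 (0.61 with Wy) and Gm6652 (0.21 and 0.02, interactions -0.53 and -0.38), and for the Wy interactions of AK133569 (-0.21) and AK037052 (-0.23). With Wy in WT and a library left out, Gm12554 ranged from -0.51 to 0.71 and Gm12562 from -0.64 to 0.26. The cause was not tested. Of 3006 tests of named members with a library left out, 2799 kept direction and side of the threshold.

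The depth limits faint members, with a median of 0.341 CPM among those tested, and identical copies and antisense pairs cannot be separated with these counts. Pools of 3 to 5 livers hide the spread between animals.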
